A study of Mus musculus and Rattus norvegicus with 36 samples.

Results

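Oligodendrocyte precursor cells cultured from mouse medial prefrontal cortex (mPFC) and from hippocampus were exposed to GABA, and the change in each transcript was compared between the cultures of both regions. The comparison used 12 of the 36 libraries of the series: mPFC untreated, mPFC with GABA, hippocampus untreated and hippocampus with GABA, with 3 libraries in each group. All 12 came from wild type cells kept for 2 days in a proliferation medium, and the treated cultures then received 200 µM GABA for 24 h. Whether the untreated cultures were kept for the same 24 h is not stated in the labels. A part of time in culture in the effects was not tested. The labels give no age, sex or strain and do not say whether replicates were separate cultures or animals, so the tests speak of the spread among these libraries, which may be technical. Levels are normalized read counts, each table of 1 region scaled by the authors on its own. An effect is the log2 change with GABA, on log2(value + 1), inside 1 region, and the difference is the hippocampal effect minus the mPFC effect, so that a positive value marks a gene whose change with GABA was higher in the hippocampal cultures.

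GABA is the main inhibitory transmitter of the mature brain. It opens GABA-A receptors, which are chloride channels, and activates GABA-B receptors, which couple to G proteins. Oligodendrocyte precursors carry both kinds of receptor, receive synaptic contacts from neurons, and can divide or mature into the cells that make myelin. Myelin is rich in cholesterol, which these cells make themselves through the sterol pathway controlled by the transcription factor SREBP2, and amino acid shortage or redox stress is met through the integrated stress response, whose main transcription factor is ATF4.

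Depth, read from the steps between the values of each library, was 14826069 to 17388376 reads, and the most abundant 10 genes took 3.64% to 4.04% of the values. The precursor identity was borne by Pdgfra, the PDGF receptor that marks these cells, at 23815 to 25591 normalized counts, and by Cspg4, the NG2 proteoglycan, at 8919 to 12539. The neuronal marker Rbfox3 stood at 20.1 to 67.5, the microglial marker P2ry12 at 2.2 to 14.8 and the endothelial marker Cdh5 at 0 to 6.8. Markers of other cells were higher: the astrocyte genes Gfap and Aqp4 stood at 2094 to 4523 and 2003 to 2658, the macrophage gene Lyz2 at 1332 to 3728, the myeloid receptor gene Csf1r at 97.9 to 231 and the GABA-synthesizing enzyme gene Gad1 of inhibitory neurons at 122 to 461. Neurod1, a transcription factor of hippocampal granule neurons, was at 135 to 238 in the hippocampal libraries and at 0 to 1.1 in the mPFC libraries. The neuron list that holds Rbfox3 had a summed level of 28831 to 32218 per library, and the astrocyte list 27977 to 30478. Which cells these transcripts came from was not tested.

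Before any result, 4 libraries have to be set apart: replicate 1 of the mPFC cultures with GABA and all 3 untreated hippocampal libraries. They shared 18 transcripts that were at 20 or more in each of them and at 3 or less in each of the other 8 libraries; no gene showed the opposite pattern. These transcripts are mostly products of exocrine glands: odorant-binding protein (Obp1a), secretoglobins (Scgb2b2, Scgb1b2), a major urinary protein (Mup4) and exocrine-gland-secreted peptides (Esp15, Esp16). Their summed level was 4137 in replicate 1 of the mPFC cultures with GABA and 1710, 4286 and 4794 in the untreated hippocampal libraries, against 1.0 to 3.4 elsewhere. Obp1a was at 612 in that mPFC library and at 267, 639 and 688 in the untreated hippocampal libraries, and at 0 in the other 8. Genes of ordinary expression moved with them. mt-Nd6, a mitochondrially encoded subunit of respiratory complex I, was at 10134 in the mPFC library that holds them and at 6848 and 6302 in its group mates. Gnas, the stimulatory G protein subunit, was at 626 in that library and at 1181 and 1304 in its group mates.

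Since every untreated hippocampal library carries these transcripts and no GABA-treated hippocampal library does, their presence and the treatment cannot be told apart within the hippocampus. The difference was therefore also fitted without replicate 1 of the mPFC cultures with GABA, with a term for the 4 libraries, and with the summed level of the 18 transcripts as a covariate, all chosen after seeing the data. The term rests on 1 mPFC library against its group mates and raised the median standard error of the difference from 0.101 to 0.165. What the 4 libraries share besides these transcripts was not tested.

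**Figure D1:**
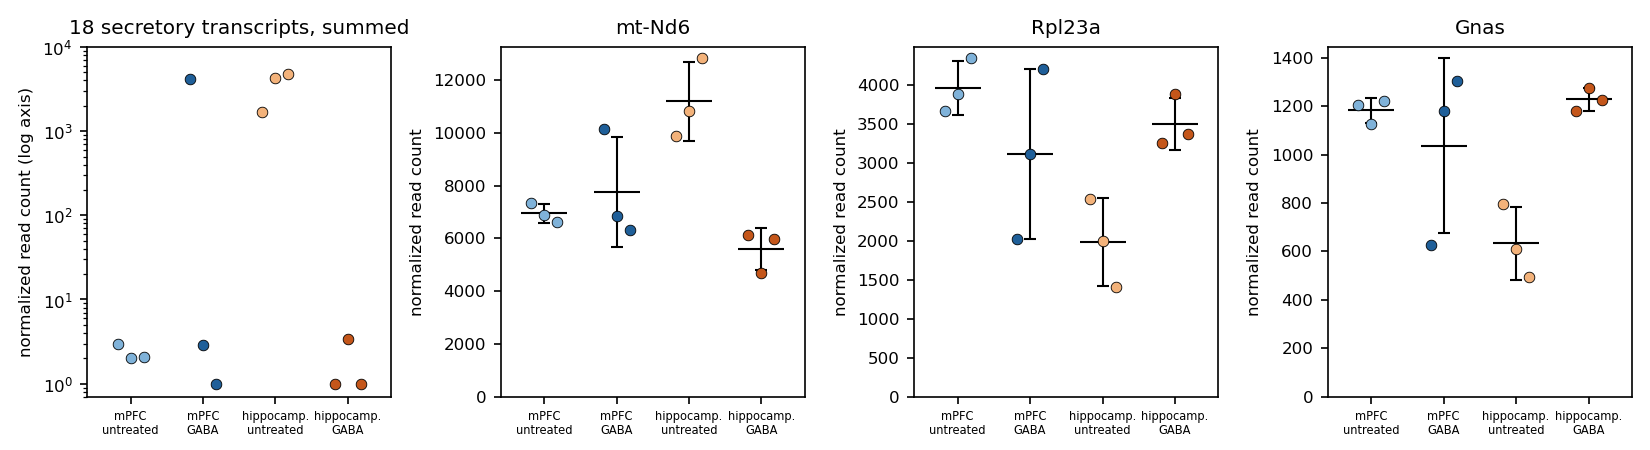
Normalized read counts per library (each point 1 library, 3 per group) of the 18 secretory transcripts summed (log axis) and of mt-Nd6, Rpl23a and Gnas (linear axes from 0, with mean ± SD). Replicate 1 of the mPFC cultures with GABA, the leftmost point of its group, lies with the untreated hippocampal libraries in every panel.

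Of 15497 genes tested, the difference of the GABA effects passed at an adjusted p under 0.05 for 747 (limma with Benjamini-Hochberg adjustment). It was higher in the hippocampus for 404 genes (2.61% of those tested) and lower for 343 (2.21%), and 73 of the 747 differed by at least 2-fold. In the mPFC cultures, 646 genes rose with GABA (4.17%) and 692 fell (4.47%). In the hippocampal cultures, 1525 rose (9.84%) and 1651 fell (10.7%). The median difference over all tested genes was -0.003.

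Among the 747 genes, 498 passed in the hippocampal cultures and not in the mPFC cultures, 130 in the mPFC cultures and not in the hippocampal ones, 26 in both in the same direction, 38 in both in opposite directions, and 55 in neither. Without replicate 1 of the mPFC cultures with GABA, 496 genes passed. With the covariate 66 genes passed, of which 39 were among the 747. With the term for the 4 libraries 9 genes passed, and all 9 were also among the 747 and passed with the covariate and without that mPFC library. The 9 genes, singled out after their values were seen, were Slc7a11, Atf5, Itga6 and Tnc, with a lower GABA effect in the hippocampus, and Hmgcs1, Hsd17b7, Lss, Stard4 and Hdac9, with a higher one. Over the 24 alternatives tried for each of them, including leaving out each library in turn, the difference kept its sign and passed. These alternatives include the fits by which the 9 genes were picked, so passing those was fixed by the choice. The others reuse the same libraries and are no independent support.

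**Figure D2:**
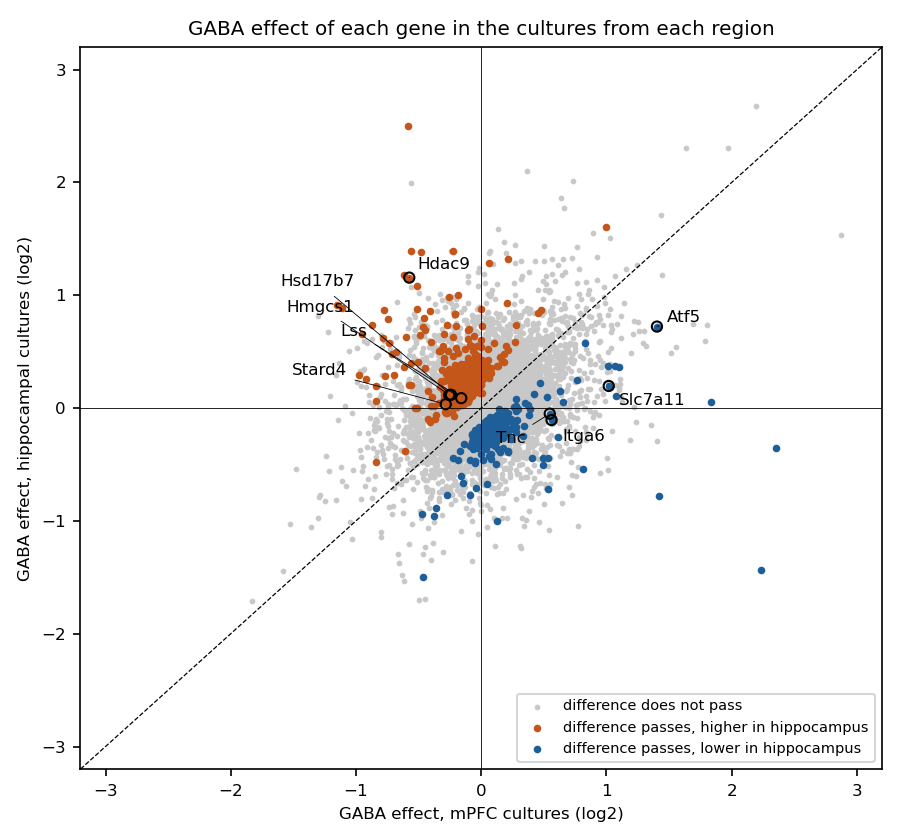
GABA effect (log2) of each tested gene in the mPFC cultures (horizontal) and the hippocampal cultures (vertical), with the dashed line marking equal effects; 31 genes lie outside the axes. Orange and blue points are genes whose difference passed, and circles mark the 9 genes that passed in every fit of the difference, with Hdac9 above the line and Slc7a11, Atf5, Itga6 and Tnc below it.

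Amino acid and stress genes rose with GABA in both cultures, and several rose less in the hippocampus. Slc7a11, the cystine carrier of the cystine/glutamate exchanger that feeds glutathione synthesis, stood at 449, 492 and 459 in untreated mPFC cultures and at 934, 931 and 970 with GABA. In the hippocampal cultures it stood at 319, 316 and 330 untreated and at 362, 368 and 377 with GABA. Treated and untreated values did not overlap in either region. The rise was 1.02 on the log2 scale in mPFC and 0.20 in hippocampus, a difference of -0.82 ± 0.078 (SE; adjusted p = 3.11e-06). The difference was -0.86 with the term for the 4 libraries (adjusted p = 0.00305). The hippocampal rise passed neither with the term (0.17, adjusted p = 0.54) nor with the covariate (0.19, adjusted p = 0.19).

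Atf5, a transcription factor of the same response, rose from 262, 274 and 280 to 631, 734 and 807 in mPFC. It rose from 204, 209 and 182 to 325, 328 and 328 in hippocampus. The groups did not overlap in either region, and the difference was -0.68 ± 0.111 (SE; adjusted p = 0.00161). Replicate 1 was the lowest treated mPFC library, and the difference was -1.06 with the term (adjusted p = 0.00264). The hippocampal rise of Atf5 did not pass with the term (0.43, adjusted p = 0.073) and passed with the covariate (0.52). Pck2, the mitochondrial form of phosphoenolpyruvate carboxykinase, rose by 1.07 in mPFC and 0.37 in hippocampus. The difference of -0.70 (adjusted p = 0.00204) did not pass with the term (-0.73, adjusted p = 0.42). Its hippocampal rise passed neither with the term nor with the covariate (0.35 in both).

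Over the list of integrated stress and amino acid genes, which does not hold Atf5, 25 were tested. In the mPFC cultures 19 rose and none fell, and in the hippocampal cultures 15 rose and none fell (9 with the covariate, 4 with the term). The difference was lower in the hippocampus for 6 and higher for none, with a median of -0.099. The 6 were Slc7a11, Pck2, the serine synthesis enzyme Psph (-0.35), the seryl-tRNA synthetase Sars (-0.26), Slc7a5 and Nupr1. Slc7a5, the large neutral amino acid carrier, rose by 0.83 in mPFC and 0.58 in hippocampus (adjusted p of the difference = 0.0152). Nupr1, a stress-induced chromatin protein, was low, at 1.0 to 4.2 untreated and 9.6 to 19.1 with GABA in mPFC. Other members had small differences. Asns, the asparagine synthetase, rose by 0.36 and 0.34, and the 95% interval of its difference ran from -0.13 to 0.09. Psat1, a serine synthesis enzyme, rose by 0.15 and 0.14, with an interval of -0.09 to 0.07. With the term 1 of the 6 passed (Slc7a11), and with the covariate 3.

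The promoter of Slc7a11 is shown because it holds the letters TGATGCAA, the core of the element that ATF4 binds with a C/EBP partner, more than once, and that of Chac1, a glutathione-degrading enzyme, because it holds them and its difference did not pass. The sequences run from 250 bases before to 50 bases after the RefSeq start (build GRCm38.p6), with matches on either strand in capitals. Slc7a11 lies at chr3:50443564-50443863 on the minus strand and Chac1 at chr2:119350992-119351291 on the plus strand.
Slc7a11: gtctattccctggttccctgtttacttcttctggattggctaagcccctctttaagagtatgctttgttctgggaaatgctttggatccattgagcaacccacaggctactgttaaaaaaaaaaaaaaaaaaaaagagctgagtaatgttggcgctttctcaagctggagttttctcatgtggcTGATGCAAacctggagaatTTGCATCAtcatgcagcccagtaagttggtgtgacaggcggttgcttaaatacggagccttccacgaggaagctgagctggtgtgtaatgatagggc
Chac1: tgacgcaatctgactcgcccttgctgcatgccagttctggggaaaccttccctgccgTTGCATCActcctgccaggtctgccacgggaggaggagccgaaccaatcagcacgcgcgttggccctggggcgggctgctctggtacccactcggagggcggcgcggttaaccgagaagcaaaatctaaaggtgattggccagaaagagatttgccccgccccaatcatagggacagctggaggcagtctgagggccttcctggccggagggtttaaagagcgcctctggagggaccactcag

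In Slc7a11 the matches begin 66 and 47 bases before the start and lie on opposite strands. The letters were found in 294 of 32851 promoters (0.89%), and in 4 of the 21 list members with a promoter in the table (Slc7a11, Chac1, Nupr1 and Vldlr). Chac1 was low, at 10.9 to 16.9 untreated and 30.1 to 45.2 with GABA in mPFC. In hippocampus it stood at 8.8 to 20.4 untreated and 23.5 to 34.7 with GABA. It rose by 1.44 and 1.18, and the interval of the difference, -1.08 to 0.55, was wide. Its difference was -0.91 with the term and -1.18 with the covariate, and did not pass with either. Nor did its hippocampal rise pass with the term (0.69) or the covariate (0.51). Vldlr, the very low density lipoprotein receptor, had effects of 0.00 and -0.08. Of the 4 members with these letters, the difference passed for Slc7a11 and Nupr1 and did not pass for Chac1 and Vldlr.

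The adhesion gene Itga6 and the matrix gene Tnc rose in the mPFC cultures and did not pass in the hippocampal ones. Itga6, the laminin-binding integrin alpha 6 subunit, stood at 1151, 1122 and 1105 in untreated mPFC cultures and at 1664, 1659 and 1663 with GABA. In hippocampus it stood at 756, 792 and 794 untreated and at 670, 762 and 746 with GABA, where the groups overlapped. The difference was -0.67 ± 0.068 (SE; adjusted p = 6.01e-06), and -0.66 with the term (adjusted p = 0.00526).

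Tnc, the matrix glycoprotein tenascin C, stood at 2156, 2197 and 2249 in untreated mPFC cultures and at 3212, 3256 and 3180 with GABA. In hippocampus it stood at 1526, 1519 and 1497 untreated and at 1419, 1535 and 1436 with GABA, again with overlap. The difference was -0.60 ± 0.053 (SE; adjusted p = 2.02e-06), the same with the term (adjusted p = 0.00208). Serpinh1, the collagen chaperone, rose in both cultures, by 1.01 and 0.37, with a difference of -0.64 (adjusted p = 2.27e-04) that did not pass with the term (adjusted p = 0.101).

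Fibrillar collagens showed the other sign. Col1a1 was at 91.1, 129 and 80.4 in untreated mPFC cultures and at 31.1, 75.0 and 78.2 with GABA. In hippocampus it was at 200, 176 and 145 untreated and at 285, 321 and 342 with GABA. The difference was 1.64 (adjusted p = 0.0053), and that of Col3a1 was 1.41 (adjusted p = 0.0028), but with the term they were -0.05 and 0.31 and neither passed. Replicate 1 was the lowest treated mPFC library for both. Of 36 tested extracellular matrix genes, the difference was higher in the hippocampus for 5 and lower for 1 (Tnc), with a median of 0.103 that was -0.047 with the term. Besides Col1a1 and Col3a1 the 5 were the crosslinking enzyme Loxl1 (1.27), Col5a1 (0.53) and the membrane metalloproteinase Mmp15 (0.29, and -0.04 with the term). Col1a1 and Col3a1 were also the 2 of 11 tested mural and fibroblast markers whose difference passed. The summed level of that marker list was 10410 to 10676 in untreated and 11491 to 12797 in treated mPFC cultures, and 9577 to 10441 in untreated and 11946 to 12210 in treated hippocampal cultures. Cspg4, also a precursor marker, belongs to that list and made up most of the sum. It stood at 10166 to 10345 in untreated and 11306 to 12539 in treated mPFC cultures. In hippocampus it stood at 8919 to 9659 untreated and 10916 to 11160 with GABA. The part of mural and fibroblast cells in the result was not tested.

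**Figure D3:**
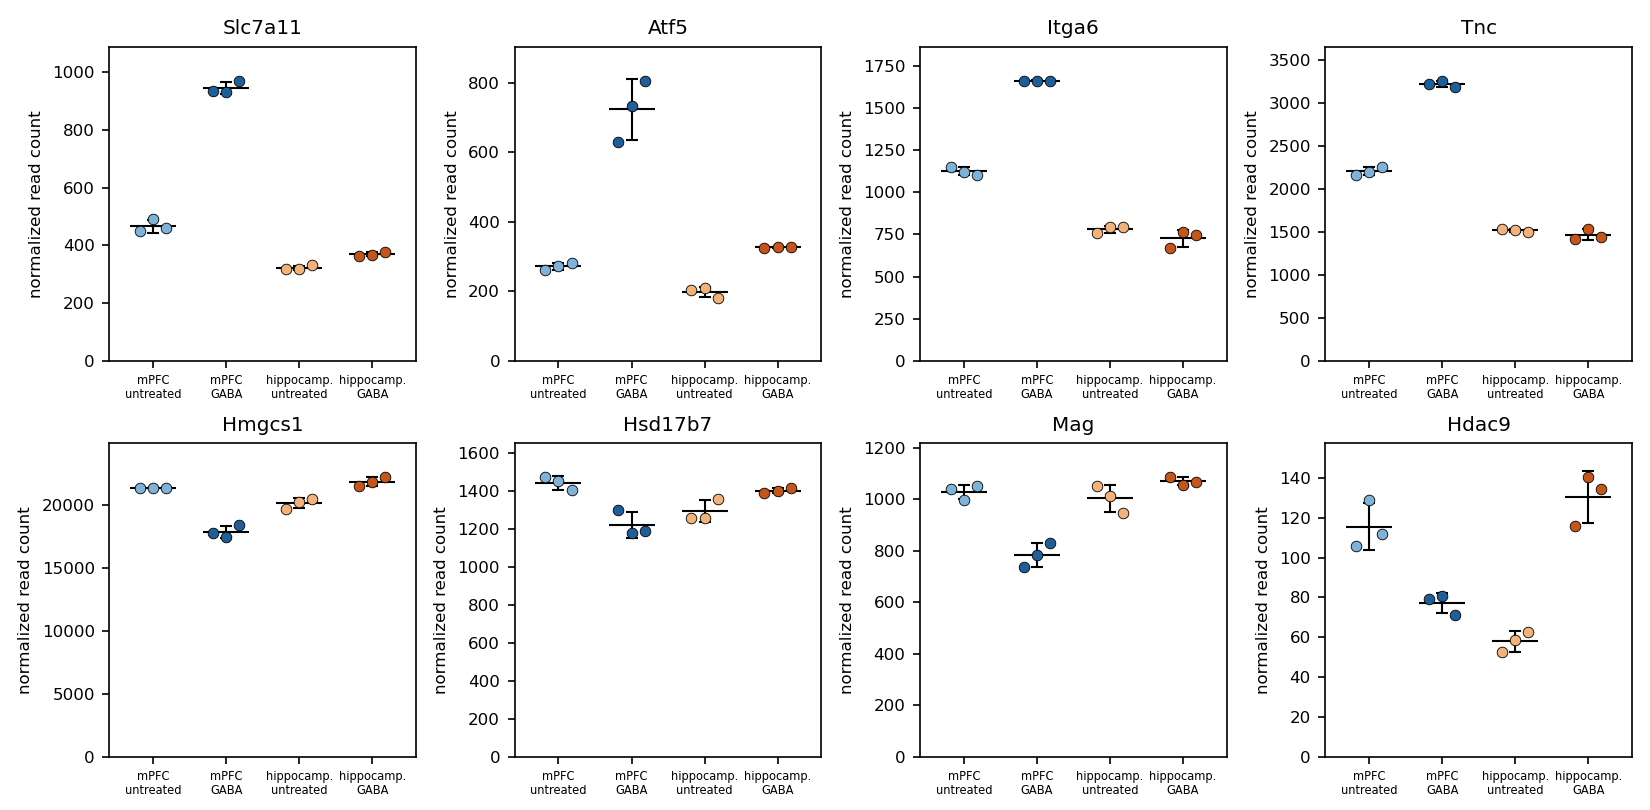
Normalized read counts per library (points, 3 per group, with mean ± SD; linear axes from 0) of 8 genes. Slc7a11 and Atf5 rose more in mPFC, Itga6 and Tnc rose in mPFC and overlapped in hippocampus, Hmgcs1, Hsd17b7 and Mag fell in mPFC, and Hdac9 fell in mPFC and rose in hippocampus.

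Cholesterol synthesis genes fell with GABA in the mPFC cultures and did not fall in the hippocampal ones. Of 25 tested members of the list of synthesis genes and SREBP2 targets, 19 fell and none rose in mPFC (17 fell without replicate 1). None fell and 6 rose in hippocampus, but with the term none of the 6 passed and with the covariate 5 genes rose. The difference was higher in the hippocampus for 17 and lower for none, with a median of 0.224 against -0.003 over all tested genes. Counts of members with a higher difference were 15 without that mPFC library, 12 with the covariate and 4 with the term, where the median was 0.234.

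Hmgcs1, the cytosolic HMG-CoA synthase at the entry of the pathway, stood at 21318, 21318 and 21334 in untreated mPFC cultures and at 17780, 17427 and 18377 with GABA. In hippocampus it stood at 19712, 20273 and 20491 untreated and at 21507, 21792 and 22258 with GABA. The groups did not overlap in either region, and the changes had opposite signs, -0.26 and 0.12. The difference was 0.37 ± 0.039 (SE; adjusted p = 6.80e-06), and 0.36 with the term (adjusted p = 0.00694).

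Hsd17b7, a sterol ketone reductase, stood at 1476, 1453 and 1404 in untreated mPFC cultures and at 1300, 1176 and 1190 with GABA. In hippocampus it stood at 1260, 1260 and 1360 untreated and at 1388, 1402 and 1416 with GABA. The groups did not overlap in either region. The effects were -0.24 and 0.12, and the hippocampal one did not pass (adjusted p = 0.0699). That effect did not pass with the term (0.25) and passed with the covariate (0.23). The difference was 0.36 ± 0.064 (SE, adjusted p = 0.00269), or 0.54 with the term. Lss, lanosterol synthase, had effects of -0.16 and 0.09 (difference 0.25, adjusted p = 0.00204). Stard4, a cytosolic cholesterol carrier, had effects of -0.28 and 0.03 (difference 0.32, adjusted p = 0.00203).

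Dhcr7, the reductase of the last step to cholesterol, fell by 0.17 in mPFC and rose by 0.33 in hippocampus (difference 0.50, adjusted p = 3.81e-05). Its difference was 0.27 with the term, which did not pass. The sterol reductase Tm7sf2 (0.44), the mevalonate pathway decarboxylase Mvd (0.43) and the demethylase Cyp51 (0.24) had passing differences that did not pass with the term (0.26, 0.27 and 0.28). Srebf2, which encodes the controlling factor, had effects of 0.04 and 0.06.

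**Figure D4:**
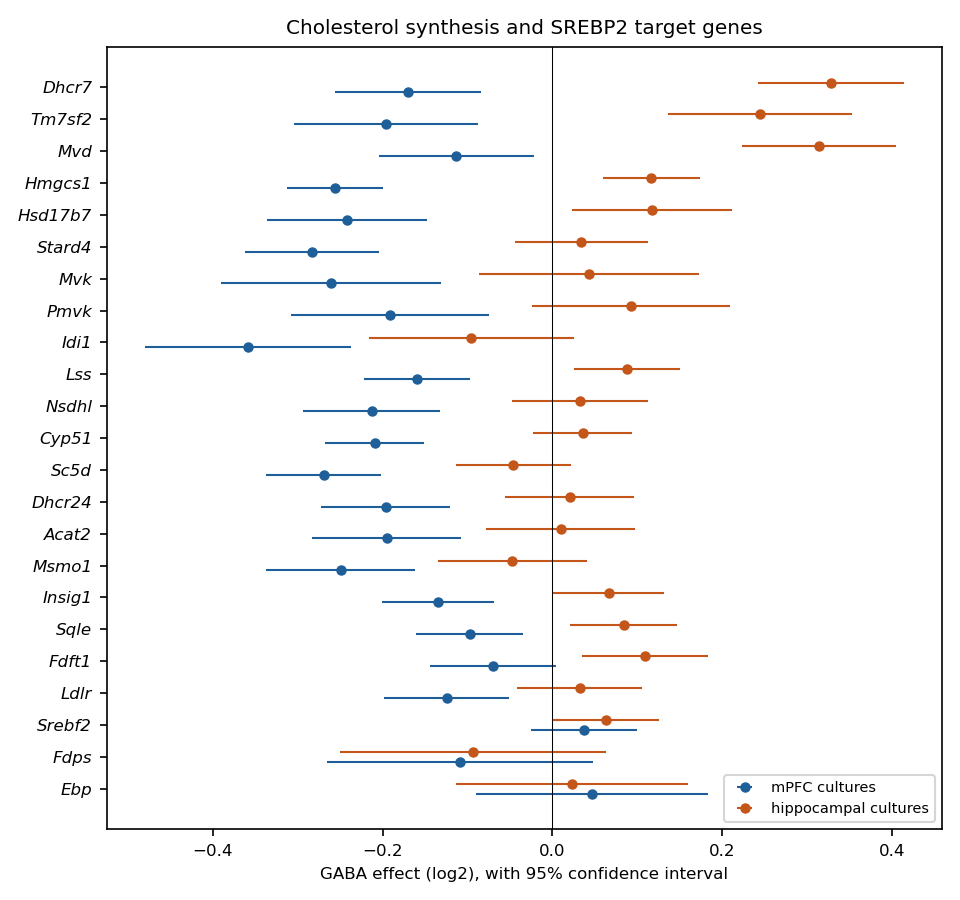
GABA effect (log2, points, with 95% confidence interval) of 23 cholesterol synthesis and SREBP2 target genes in mPFC (blue) and hippocampal (orange) cultures, ordered by the difference. The mPFC points lie below 0 for every gene but Srebf2 and Ebp, and the hippocampal points lie around or above 0.

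The promoter of Hmgcs1 is shown as the sterol gene with the smallest p of the difference. It is the 1 of 17 list members with a promoter in the table that holds TCACNCCAC, the core of the sterol regulatory element of the LDL receptor gene, which was found on either strand in 408 of 32851 promoters (1.24%). It lies at chr13:119690101-119690400 on the plus strand, with the match, 137 bases before the start, in capitals.
Hmgcs1: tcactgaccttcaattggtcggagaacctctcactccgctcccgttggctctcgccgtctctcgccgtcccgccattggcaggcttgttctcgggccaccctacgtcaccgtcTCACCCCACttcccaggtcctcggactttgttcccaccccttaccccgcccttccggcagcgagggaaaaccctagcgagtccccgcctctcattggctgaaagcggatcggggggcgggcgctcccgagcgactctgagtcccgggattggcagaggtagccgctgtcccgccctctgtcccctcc

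Among genes of cholesterol release and other LXR targets, the passing differences had both signs. Abca1, the transporter that exports cholesterol and a target of the sterol-sensing receptor LXR, rose by 0.35 in mPFC and had an effect of 0.04 in hippocampus (difference -0.31, adjusted p = 0.00241). Apoe, the lipid carrier of glia, had an effect of 0.01 in mPFC and fell by 0.27 in hippocampus (difference -0.29, adjusted p = 0.00449). Scd1, a fatty acid desaturase that both LXR and SREBP proteins induce, fell by 0.11 and rose by 0.15 (difference 0.27). These were the 3 passing genes of 11 tested efflux and LXR targets. All 3 also passed with the covariate and none with the term. Abcg1, another cholesterol exporter, had effects of 0.16 and -0.08, and its difference of -0.25 did not pass (adjusted p = 0.12).

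Among genes of maturing oligodendrocytes, the difference was higher in the hippocampus for 4 of 15 myelin genes and 4 of 14 genes of committed precursors, and for none of them with the term. Mag, a myelin adhesion protein, was at 1038, 998 and 1051 in untreated mPFC cultures and at 735, 782 and 830 with GABA. In hippocampus Mag was at 1050, 1013 and 946 untreated and at 1088, 1056 and 1067 with GABA. The groups did not overlap in mPFC or in hippocampus, but the hippocampal effect of 0.09 did not pass (adjusted p = 0.195). With the term that effect was -0.04. The difference was 0.49 (adjusted p = 0.000483), or 0.31 with the term (adjusted p = 0.712). Mbp, myelin basic protein (0.38), and Myrf, the factor that drives myelin genes (0.30), also had passing differences.

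Of 15 tested myelin genes, 7 fell in mPFC and none rose, while 2 fell and 1 rose in hippocampus (none in either direction with the term or the covariate). The median difference was 0.111, none was lower in the hippocampus, and 1 passed with the covariate. Ugt8a, an enzyme of myelin galactolipid synthesis, had effects of -0.14 and -0.13. Among 14 tested genes of committed precursors, 11 fell in mPFC and 5 fell in hippocampus, and none rose in either. The 5 were Tcf7l2, Enpp6, Tmem163, Tnr and Ugt8a. With the covariate 4 fell in hippocampus (Nfasc, Sirt2, Tcf7l2 and Tnr), and with the term 1 (Nfasc, -0.19). The difference passed for 4 of the 14 genes, all higher in the hippocampus. They were the axon-contact protein Nfasc (0.42), the semaphorin receptor Plxnb3 (0.23), Bmp4 (0.30) and the deacetylase Sirt2 (0.14). Nfasc was lowest in replicate 1 of the treated mPFC cultures, and its difference was 0.14 with the term. None of these 4 differences passed with the term, and the list's median differences were 0.07 and 0.062 without and with it.

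Of 17 precursor markers, the difference was higher in the hippocampus for 1 and lower for 1. The higher one was Sox10, a lineage factor, with 0.23 (adjusted p = 0.0498). With the term or the covariate no precursor marker passed, and the Sox10 value turned to -0.03 in both. Pdgfra had effects of 0.03 and 0.01, and the interval of its difference ran from -0.10 to 0.05. Cspg4 rose in both cultures, by 0.20 and 0.25, with an interval of -0.05 to 0.15.

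No GABA-A or GABA-B receptor subunit gene had a passing difference in the fit on 4 groups, while 2 GABA-A subunit genes, Gabrg1 (0.29, adjusted p = 0.0226) and Gabrb1 (0.34, adjusted p = 0.0463), passed after the GC correction described further on. Of 13 tested GABA-A subunit genes, 2 fell in mPFC (Gabra3 and Gabra5), and 2 fell, among them Gabra3, and 1 rose (Gabrb1) in hippocampus. Gabra3, an alpha subunit, stood at 436, 419 and 431 in untreated and 391, 326 and 316 in treated mPFC cultures. In hippocampus it stood at 478, 446 and 471 untreated and 357, 331 and 342 with GABA. Treated values were below untreated ones in both regions. It fell by 0.32 and 0.44, and the interval of the difference was -0.32 to 0.09. Gabrg1 had effects of -0.09 and 0.04 (interval -0.06 to 0.32), and Gabrb1 had -0.05 and 0.23 (difference 0.28, adjusted p = 0.173). Gabra5 was low, at 12.1 to 61.1, and its difference was 0.65 (adjusted p = 0.229).

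Gabra2, Gabra4, Gabrb2, Gabrg3, Gabrq and Gabrr2 had no group mean above 127.1, and their differences ran from -0.24 to 0.17. Of the GABA-B subunits, Gabbr1 had effects of 0.12 and 0.20 (interval of the difference -0.04 to 0.19) and Gabbr2 had -0.10 and -0.28. Slc12a2, the chloride importer NKCC1, was at 4862 to 5129 in the mPFC libraries and 5909 to 6232 in the hippocampal ones, with an interval of the difference of -0.10 to 0.09. Slc12a5, the neuronal chloride exporter KCC2, was low, at 54.5 to 97.3 (difference -0.34, adjusted p = 0.536). Gabarap, a receptor-trafficking and autophagy protein (-0.26), was 1 of 2 passing genes, both lower in the hippocampus, among 19 for GABA-B receptors, GABA handling and chloride transport. No gene of that list passed with the term or the covariate.

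Several genes of myeloid cells fell more in the hippocampal cultures. Lyz2, the lysozyme of macrophages, was at 3250, 3428 and 3728 in untreated mPFC cultures and at 2779, 2683 and 2643 with GABA. In hippocampus it was at 2413, 2583 and 2536 untreated and at 1332, 1360 and 1378 with GABA. The groups did not overlap in either region. The difference was -0.53 (adjusted p = 3.81e-05), and -0.45 with the term (adjusted p = 0.0686). Stab1, a macrophage scavenger receptor, fell by 0.38 and 0.96 (difference -0.58, adjusted p = 0.00148). Mpeg1, a pore-forming protein of macrophages, fell by 0.47 and 0.94 (difference -0.47), and the macrophage elastase Mmp12 fell in both (difference -1.04, adjusted p = 1.16e-04).

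Of 16 tested myeloid markers, 2 fell in mPFC and 8 in hippocampus (5 with the covariate, 3 with the term), and the difference passed for 2 (Lyz2 and C1qb, -0.52). The list's median difference was -0.363 and its value with the term -0.356. The summed level of the list was 6929 to 7461 in untreated and 5982 to 6138 in treated mPFC cultures, and 4712 to 4936 in untreated and 3141 to 3183 in treated hippocampal cultures. Lyz2 was the largest part of that sum. Its mean went from 3469 to 2702 in mPFC and from 2511 to 1357 in hippocampus. Csf1r, the receptor these cells need to survive, was at 97.9 to 231 in all 12 libraries and had effects of 0.10 and -0.06. The marker Cx3cr1 had effects of 0.34 and 0.08, and neither passed. With the covariate its mPFC effect was 0.43 and passed. In bulk libraries fewer cells of a type and less RNA per cell cannot be told apart.

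Astrocyte genes were mixed. Gfap, the intermediate filament of astrocytes, fell by 0.38 in mPFC and had an effect of 0.02 in hippocampus (difference 0.40, adjusted p = 1.83e-04). Aldh1l1, a folate enzyme used as an astrocyte marker, rose by 0.47 and 0.22 (difference -0.25, adjusted p = 0.0321). Its hippocampal rise passed neither with the term (0.12) nor with the covariate (0.11). The gap junction protein Gja1 (-0.40) and the growth factor receptor Fgfr3 (-0.27) also had lower effects in the hippocampus. Of 14 tested markers the difference was thus higher for 1 and lower for 3. Gfap and Aldh1l1 passed with the covariate, and none passed with the term.

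Among 27 immediate early genes, which respond to activity and growth factors within minutes, 12 rose and none fell in hippocampus, and 2 rose and 2 fell in mPFC. With the term, and likewise with the covariate, 2 rose in hippocampus (Npas4 and Fosl2), and the hippocampal effect of the AP-1 subunit Jund went from 0.54 to -0.26 with the term. The difference was higher for 4. Npas4, a neuronal activity factor, was at 14.8 to 24.7 untreated and 11.7 to 14.4 with GABA in mPFC. In hippocampus it was at 2.9 to 8.8 untreated and 32.4 to 41.5 with GABA, without overlap (difference 3.08, adjusted p = 3.89e-04). Fosl2, an AP-1 subunit, rose by 0.83 in hippocampus and had an effect of -0.21 in mPFC (difference 1.04). The nuclear receptor Nr4a3 fell by 0.27 and rose by 0.25, and Btg2, an antiproliferative gene, fell by 0.19 and rose by 0.18. The median difference of the list was 0.245 and -0.013 with the term. Npas4 and Fosl2 still passed with the covariate (adjusted p = 3.09e-04 and 0.0224) but not with the term (adjusted p = 0.145 and 0.148).

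Of 19 tested p53 targets, 9 rose and 1 fell in mPFC and 14 rose in hippocampus (7 with the covariate, 3 with the term), and the difference was higher in the hippocampus for 4. Cdkn1a, the cell cycle inhibitor p21, rose by 0.48 and 0.87 (difference 0.39). The mitotic regulator Gtse1 (0.47), the apoptosis gene Pmaip1 (0.79) and Btg2 (0.37) were the others. None passed with the term or the covariate.

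Hdac9, a class IIa histone deacetylase, had the largest difference of the 9 genes that passed in every fit. It was at 106, 129 and 112 in untreated mPFC cultures and at 79.3, 80.7 and 71.3 with GABA. In hippocampus it was at 52.4, 58.7 and 62.6 untreated and at 116, 141 and 135 with GABA. The groups did not overlap in either region, and the signs were opposite, -0.57 and 1.16. The difference was 1.73 ± 0.170 (SE; adjusted p = 3.76e-06), and 1.81 with the term (adjusted p = 0.00464).

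In all, 38 genes passed in both cultures in opposite directions with a passing difference, 24 down in mPFC and up in hippocampus and 14 the other way. Rps23, Parvb, Nr4a3, Chgb, Dhcr7, Paqr8, Dmrtb1 and Tm7sf2 had the largest differences of those at or above the median level. Parvb, a focal adhesion protein, was at 3514, 3665 and 3639 in untreated mPFC cultures and at 2447, 2782 and 2829 with GABA. In hippocampus it was at 3053, 2904 and 2582 untreated and at 3178, 3095 and 3193 with GABA (difference 0.58, adjusted p = 0.000118). Paqr8, a membrane progestin receptor, rose by 0.28 and fell by 0.17 (difference -0.45), and chromogranin B, Chgb, of secretory granules, rose by 0.23 and fell by 0.28 (difference -0.51). Islr2, a neuronal surface protein, was at 90 to 100 untreated and 128 to 137 with GABA in mPFC, and at 375 to 456 untreated and 285 to 316 with GABA in hippocampus (difference -0.93, adjusted p = 0.00013). With the covariate 8 genes passed in opposite directions, and with the term 1.

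By contrast, 306 genes rose in both cultures and 315 fell in both. H1f2, a linker histone, rose by 0.89 and 0.96, and the interval of the difference was -0.07 to 0.22. Ephx1, microsomal epoxide hydrolase, rose by 0.79 and 0.84, Atf5 by 1.40 and 0.72, and Serpina3n, a secreted protease inhibitor, by 1.00 and 1.60 (difference 0.61, adjusted p = 0.0428). Spp1, osteopontin, fell by 1.03 and 1.16, with an interval of -0.35 to 0.09. Gpnmb, a lysosomal glycoprotein, fell by 0.84 and 0.48 (difference 0.36, adjusted p = 0.0117), and the microRNA host gene Mir17hg fell by 0.45 and 0.48. The count of genes moving the same way was 621, and 134 with the term for the 4 libraries.

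The largest positive differences of well expressed genes were mostly those of genes that follow the 4 libraries. Rpl23a, a ribosomal protein, was at 3656, 3881 and 4335 in untreated mPFC cultures and at 2024, 3104 and 4201 with GABA. In hippocampus it was at 2538, 1998 and 1406 untreated and at 3249, 3876 and 3361 with GABA. The difference was 1.26 (adjusted p = 0.00552), and 0.15 with the term (adjusted p = 0.963). Gnas went from 1.24 to -0.08, mt-Co2 from 0.84 to -0.13, Spacdr from 0.83 to -0.0055, the G protein gamma subunit Gng3 from 0.72 to 0.11, Ssbp4 from 0.61 to -0.08, Rps23 from 0.61 to -0.02, Prr18 from 0.60 to 0.09 and Rps27 from 0.59 to -0.23. Serpina3n kept 0.61 with the term without passing (adjusted p = 0.83), and the differences of Parvb (0.58 to 0.32) and Agfg2 (0.55 to 0.38) shrank.

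On the negative side, mt-Nd6 went from -1.13 (adjusted p = 5.58e-04) to -0.30 and the nucleosome-binding protein Hmgn5 from -0.68 to 0.03. Chgb went from -0.51 to -0.43 and the selenium carrier Selenop from -0.50 to -0.48, and neither passed with the term. Obp1a is given by its values above. The cytosolic ribosomal protein genes were split, with 12 of 81 higher and 11 lower, among them Rps27a (0.42). So were the 13 mitochondrially encoded genes, with 3 higher and 5 lower: mt-Nd4l had 1.60, mt-Atp8 0.99 and mt-Nd2 -0.42. No gene of either list passed with the term. Ribosomal protein genes have many near-identical processed copies, and how the authors assigned reads shared between copies is not known here, so these values are uncertain.

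**Figure D5:**
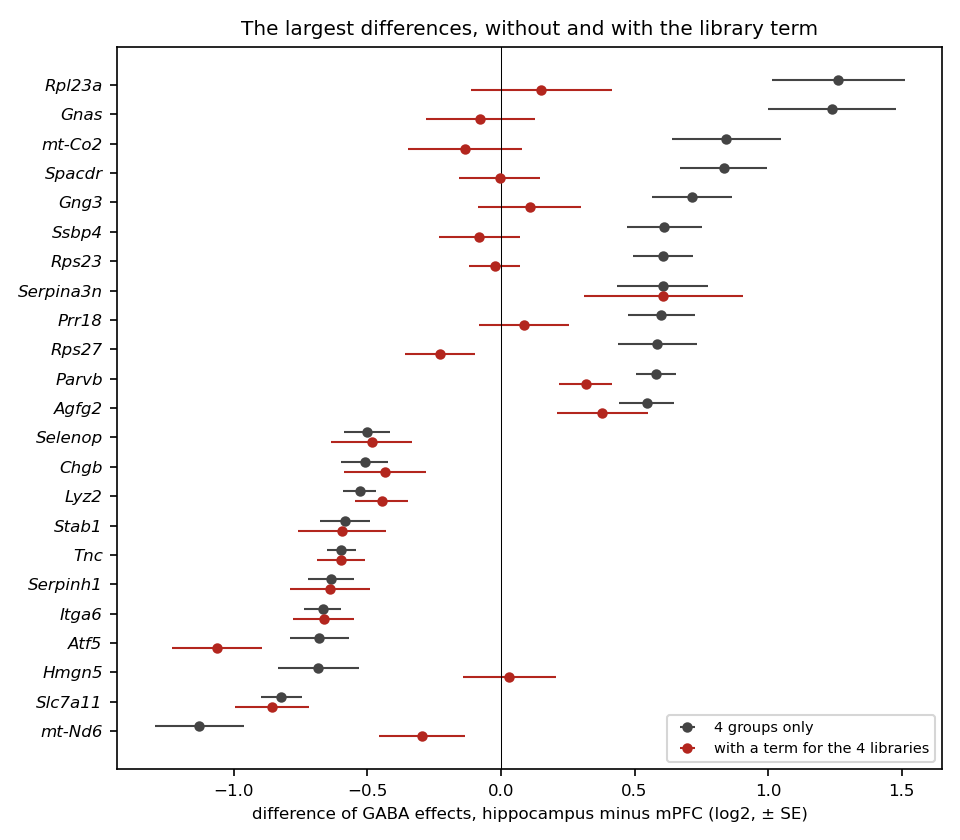
Difference of GABA effects (log2, hippocampus minus mPFC, points ± SE) of the 23 genes with the largest passing differences other than Obp1a, from the fit on 4 groups (grey) and with the term for the 4 libraries (red). Rpl23a, Gnas, mt-Co2, Spacdr, Gng3, Ssbp4, Rps23, Prr18, Rps27 and Hmgn5 lie near 0 with the term, while Slc7a11, Itga6 and Tnc keep their values and pass, and Serpinh1 (-0.64), Stab1 (-0.59) and Lyz2 (-0.45) lie on the same side without passing.

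Differences also followed base composition. GC content was known for 98.0% of tested genes, and genes with a higher effect in the hippocampus had a median GC of 54.7% against 48.3% for those with a lower one and 49.3% for all tested genes. Across genes, which are not independent replicates, the Spearman correlation of GC content with the effect was 0.10 in mPFC and 0.29 in hippocampus. After a correction of each library against GC content within its table, 1236 genes passed, 618 in each direction, including 707 of the 747.

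Of the 40 gene lists described by counts, 33 held a gene whose difference passed. Over all 15497 tested genes the difference passed for 2.61% (higher in the hippocampus) and 2.21% (lower). Larger lists can hold a passing gene at that share alone, so the count of lists is no measure of breadth. With the term for the 4 libraries 4 lists did (cholesterol synthesis with 4 genes, and integrated stress, NRF2 antioxidant and matrix genes with 1 each, the first pair of these sharing Slc7a11), and with the covariate 14. No gene passed among 38 cell cycle and DNA replication genes (median difference -0.002) or among 29 BAF chromatin remodelling subunits (0.016).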

How the data were processed

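Poly-A RNA from cultured mouse oligodendrocyte precursor cells was sequenced as single-end reads, per the labels. The authors deposited 1 table per region of normalized read counts, a signal in which each library's reads are divided by 1 factor. The submitters' processing notes name HISAT, Bowtie2, DESeq2 and build GRCm38.p6; versions, annotation and strand setting are not given in the sources used here, so overlapping antisense genes could not be told apart.

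The tables held 26337 and 26397 genes, of which 24802 were joined on gene symbol. Genes at 10 or more in at least 3 of the 12 libraries were tested (15497). limma 3.58.1 (R 4.3.3), with a trend, was fitted on log2(value + 1) to 4 group means, and p-values were Benjamini-Hochberg adjusted over all tested genes, with 0.05 as the threshold. Fold changes on this scale understate the change of low genes. The fit was tested on simulated data. Contrasts were taken inside each table, and levels were not tested across them. The planned count models were replaced by limma because the deposited values are not counts.

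Named genes were the 12 with the largest passing differences in each direction at or above the median level, the largest opposite and shared changes, and members of the gene lists; Hdac9, Islr2, Mmp12, Lss, Hsd17b7, Stard4, Slc7a5, Chac1, Nupr1, Loxl1 and Col5a1 were chosen after their values were seen. Members and lists were chosen with earlier results of these data known. Some genes that the rule or the lists name are counted but not reported by name here. Promoters are RefSeq sequences (GRCm38.p6). Alternatives were other pseudocounts, filters, scalings, a replicate block, leaving out each library, and, added after seeing the data, terms for the 4 libraries that stand apart and a GC correction.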

Additional observations from a re-analysis of the deposited data

Results flagged for a closer look

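The GABA effect differed between the cultures by the test of the difference itself (limma, Benjamini-Hochberg adjusted) for 747 genes, of which those named in the text, apart from the shared secretory transcripts other than Obp1a, follow with the difference on the log2 scale, hippocampus minus mPFC.

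Higher effects in the hippocampal cultures were found for Npas4 (3.08), Hdac9 (1.73), Col1a1 (1.64), mt-Nd4l (1.60), Col3a1 (1.41), Loxl1 (1.27), Rpl23a (1.26), Gnas (1.24), Fosl2 (1.04), mt-Atp8 (0.99), mt-Co2 (0.84), Spacdr (0.83), Pmaip1 (0.79), Gng3 (0.72), Ssbp4 (0.61), Rps23 (0.61), Serpina3n (0.61), Prr18 (0.60), Rps27 (0.59), Parvb (0.58), Agfg2 (0.55), Col5a1 (0.53), Nr4a3 (0.52), Dhcr7 (0.50) and Mag (0.49). Smaller positive differences were those of Gtse1 (0.47), Dmrtb1 (0.45), Tm7sf2 (0.44), Mvd (0.43), Rps27a (0.42), Nfasc (0.42), Gfap (0.40), Cdkn1a (0.39), Mbp (0.38), Hmgcs1 (0.37), Btg2 (0.37), Gpnmb (0.36), Hsd17b7 (0.36), Stard4 (0.32), Bmp4 (0.30), Myrf (0.30), Mmp15 (0.29), Scd1 (0.27), Lss (0.25), Cyp51 (0.24), Plxnb3 (0.23), Sox10 (0.23) and Sirt2 (0.14).

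Lower effects were found for Obp1a (-12.02), Nupr1 (-2.72), mt-Nd6 (-1.13), Mmp12 (-1.04), Islr2 (-0.93), Slc7a11 (-0.82), Pck2 (-0.70), Atf5 (-0.68), Hmgn5 (-0.68), Itga6 (-0.67), Serpinh1 (-0.64), Tnc (-0.60), Stab1 (-0.58), Lyz2 (-0.53), C1qb (-0.52), Chgb (-0.51) and Selenop (-0.50). Smaller negative differences were those of Mpeg1 (-0.47), Paqr8 (-0.45), mt-Nd2 (-0.42), Gja1 (-0.40), Psph (-0.35), Abca1 (-0.31), Apoe (-0.29), Fgfr3 (-0.27), Sars (-0.26), Gabarap (-0.26), Slc7a5 (-0.25) and Aldh1l1 (-0.25). The value of Obp1a is set by libraries at 0 and is no measure of size.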

How the results depend on the processing

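The count of 747 genes with a differing effect stayed within 1.5 times under other pseudocounts, filters and scalings, a robust fit, separate fits per table and the replicate block. Leaving out 1 library at a time gave 271 to 1280 genes: without mPFC untreated replicates 1, 2 and 3 it was 342, 352 and 271, without mPFC GABA replicates 1 and 2 it was 496 and 1280, without hippocampus untreated replicates 2 and 3 it was 320 and 332, and without hippocampus GABA replicates 1, 2 and 3 it was 350, 276 and 332. Leaving out 1 library gave 782 to 1472 genes for the mPFC effect, 1913 to 4005 for the hippocampal effect, 12 to 78 for genes moving in opposite directions, 416 to 894 for those moving the same way, 10 to 18 cholesterol genes and 5 to 7 stress genes.

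With the term for the 4 libraries, 9 genes differed, 198 passed in hippocampus, 1 moved in opposite directions and 134 the same way, and 4 cholesterol genes and 1 stress gene passed. With the summed level as covariate, 66 differed, 2081 passed in mPFC, 738 in hippocampus, 8 moved in opposite directions and 361 the same way, and 3 stress genes passed. With the GC correction, 1236 differed and 81 moved in opposite directions; higher calls were 50% of the 1236 against 54.1% of the 747. The cause was not tested. With the term the difference changed sign for Obp1a (0.32), Hmgn5 (0.0312), Gnas (-0.0768), mt-Co2 (-0.13), Spacdr (-0.0055), Ssbp4 (-0.0808), Rps23 (-0.0231), Rps27 (-0.23), Col1a1 (-0.052), Mmp15 (-0.0442) and Sox10 (-0.0309), and with the covariate for Rps27 (-0.0102) and Sox10 (-0.0333).

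With the replicate number as a block, 940 genes differed and 62 moved in opposite directions; same-numbered libraries deviated together with correlations of -0.03 to 0.02, so the numbers were not taken to pair the samples. The planned edgeR and DESeq2 fits were not run, since the values are normalized and were not taken as counts. With 3 libraries a group, small differences of low genes were not detectable.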
